A study of Mus musculus with 9 samples.

Results

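Tubulin isotypes are the products of separate genes that encode the alpha and the beta subunit of microtubules. The 10 isotype genes described here, 5 alpha (Tuba1a, Tuba1b, Tuba1c, Tuba4a and Tuba8) and 5 beta (Tubb2a, Tubb2b, Tubb3, Tubb4a and Tubb5), were selected by name from the 55247 genes of the deposited table. They were chosen with 2 results of these data in view, a lower Tuba8 in the mutant and a call of Tuba1c when no filter on low counts was used. Values of the mutant against either control, and of Tuba8 and Tuba1c in every comparison, are therefore descriptions. Where a count of calls or a p of these is given, it shows what the choice rested on or how it moved with the processing, and it is no independent test. In the comparison of the 2 controls, tests are given for the 8 other members.

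The study asked what the transcription factor Meis2 does in sensory neurons, and sequenced RNA of dorsal root ganglia (DRGs), the ganglia that hold the cell bodies of sensory neurons, from mouse embryos at E18.5 (embryonic day). The 9 libraries fell into 3 genotypes of 3 libraries each. WT embryos carried no Cre allele, Isl1Cre/+ embryos carried 1 Isl1Cre allele, in which Cre recombinase is under the control of the Isl1 gene, and Isl1Cre/+::Meis2LoxP/LoxP embryos (mutant) carried that allele and 2 conditional Meis2 alleles. Isl1 is active in sensory neurons and in some other neurons, whereas a ganglion also holds glia, vessels and connective tissue. In the conditional allele, LoxP sites surround the exon with which the homeodomain begins, and this line had been backcrossed to C57BL/6. Cre-positive embryos, control or mutant, share the Isl1Cre allele, and the study's reporting checklist describes replicates in general as biological. No source used here says how many embryos made up a library, and p-values measure the spread between these libraries.

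Alpha- and beta-tubulin pair into dimers that polymerize into microtubules, the tracks for axonal transport and the struts of the axon. The isotypes of a family are alike over most of their length and are known to vary most in the tail at the carboxyl terminus, which lies on the microtubule surface and is where enzymes add or remove tyrosine, glutamate and glycine. Tubb3 is the classic neuronal beta isotype, Tubb2a, Tubb2b and Tubb4a are abundant in the nervous system, Tubb5 is made by most cells, Tuba1a is the main alpha isotype of developing neurons, Tuba1b and Tuba1c are made by many cells, and Tuba4a is encoded without the terminal tyrosine of most alpha isotypes.

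The last 45 coding bases before the stop codon are shown for Tuba1c, Tuba4a, Tuba8, Tubb3 and Tubb5, because this is the tail in which isotypes are known to vary most. They were read from GENCODE M21 transcripts, 5′ to 3′, and the capitals mark the last codon.
Tuba1c: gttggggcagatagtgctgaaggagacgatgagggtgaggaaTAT
Tuba4a: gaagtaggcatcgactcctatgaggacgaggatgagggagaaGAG
Tuba8: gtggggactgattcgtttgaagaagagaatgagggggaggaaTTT
Tubb3: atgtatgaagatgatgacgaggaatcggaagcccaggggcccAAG
Tubb5: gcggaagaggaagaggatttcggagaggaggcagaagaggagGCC

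The last codon was a tyrosine codon in Tuba1c, a glutamate codon in Tuba4a and a phenylalanine codon in Tuba8. Over the whole coding sequence, Tuba1a shared 98.3% of its bases with Tuba1b and 97.1% with Tuba1c, but 84.7% with Tuba4a and 79.6% with Tuba8. Tubb2a and Tubb2b shared 96.5%, and the other pairs of beta isotypes 81.5% to 84.6%. In the translated sequence Tuba8 shared 90.0% to 90.2% of residues with the other alpha isotypes and Tubb3 90.7% to 91.6% with the other beta isotypes, so these 2 differ from their families along more than the tail. Tuba1a (chr15:98949837-98953703, reverse strand) and Tuba1b (chr15:98931425-98934565, reverse strand) are neighbours on GRCm38, with Tuba1c (chr15:99029891-99038110, forward strand) close by. Tubb2a (chr13:34074274-34078007) and Tubb2b (chr13:34126748-34130466) also lie near each other, both on the reverse strand. Tuba8 (chr6:121210696-121226854, forward strand) stands alone with 5 exon blocks.

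This likeness bears on the counts, since the authors kept uniquely mapped reads. Reads were sequenced over 84 bases and were shorter when aligned, because the molecular identifier was removed first. Of all 84-base windows of the annotated transcripts, 53.8% of those of Tuba1a, 65.9% of Tuba1b and 47.8% of Tuba1c also occurred in a transcript from another place in the genome, as did 41.1% of those of Tubb2a and 28.7% of those of Tubb2b. None of the 84-base windows of Tuba4a, Tuba8, Tubb3, Tubb4a and Tubb5 did. With windows of 60 bases the shares were 61.2% for Tuba1a, 71.7% for Tuba1b, 51.1% for Tuba1c, 46.7% for Tubb2a and 34.0% for Tubb2b, with 11 windows (0.284%) for Tuba4a and none for Tuba8, Tubb3, Tubb4a and Tubb5. Tuba8 overlaps Gm15856 on the opposite strand over 16.3% of its exon bases, and Tuba4a overlaps Stk16 over 37.3%. The strand option of the counting is not stated, and Gm15856 held 0 to 1 counts in a library and Stk16 1016 to 1320. Tuba1a and Tuba1b share 26.2% and 22.7% of their exon bases with Gm49450 on the same strand, a gene at 0 counts in every library.

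The libraries held 23854607 to 29103444 counts, and Meis2 held 2746 to 2919 counts in WT, 2537 to 2857 in Isl1Cre/+ and 1004 to 1084 in the mutant, with no overlap between mutant and controls. Isl1 stood at 262 ± 30.4 cpm (counts scaled to a library of 1000000; SD, n = 3) in WT, 186 ± 19.1 in Isl1Cre/+ and 188 ± 24.7 in the mutant. The 9 sensory neuron markers measured were all above the count filter, at a summed 4282 to 6139 cpm. WT library 1 and mutant library 2 stood apart, with a median rank correlation with the other libraries of 0.981 and 0.979 against 0.991 to 0.995 for the rest. Fold changes of Tuba1c, Tuba8 and the beta isotypes of the nervous system are also given without the one or the other, and the ratio of alpha to beta level in WT without WT library 1.

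The 10 isotypes took 0.795% to 0.939% of all counts in a library. Compared per kilobase of annotated exon, Tubb5 (842 ± 40.2 cpm per kilobase, SD over the 9 libraries) and Tuba1a (819 ± 83.7) stood highest, and Tubb5 was above Tuba1a in 6 of 9 libraries. Tubb3 (661 ± 82.6), Tubb2b (641 ± 100.4) and Tubb2a (550.0 ± 54.7) followed, and the ranges of neighbours overlapped down to this point. Tubb4a (317 ± 39.9) lay below all of these without overlap, and then came Tuba1b (81.5 ± 7.36). Tuba4a (25.6 ± 2.13) and Tuba1c (22.5 ± 8.99) could not be ordered on this length, Tuba4a being higher in 5 of 9 libraries. Tuba8 (1.74 ± 0.436) was the lowest isotype in every library.

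The alpha pool was thus dominated by 1 gene and the beta pool was shared among several. Tuba1a made up 86.1% ± 1.36 (SD, n = 9) of the summed alpha level per kilobase, Tuba1b 8.62% ± 0.941, Tuba4a 2.72% ± 0.422, Tuba1c 2.36% ± 0.879 and Tuba8 0.185% ± 0.0510. In the beta pool, Tubb5 held 28.1% ± 2.04, Tubb3 21.9% ± 0.664, Tubb2b 21.2% ± 1.18, Tubb2a 18.3% ± 0.495 and Tubb4a 10.5% ± 0.429. With lengths cut to the windows found nowhere else, Tuba1a rose above all beta isotypes (1773 against 934 cpm per kilobase for Tubb2a, the next), so the order of alpha against beta genes depends on the length used. The order within the beta pool turned as well, with Tubb2a at 25.6% and Tubb2b at 24.5% above Tubb5 at 23.2%, although the levels of these neighbours overlapped. Within the alpha pool Tuba1a held 85.1% on that scale, whereas Tuba4a fell from 2.72% to 1.24% and Tuba8 from 0.185% to 0.0845%. Tuba1c was then above Tuba4a in 8 of 9 libraries (43.1 against 25.6 cpm per kilobase), with ranges that overlapped.

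**Figure D1:**
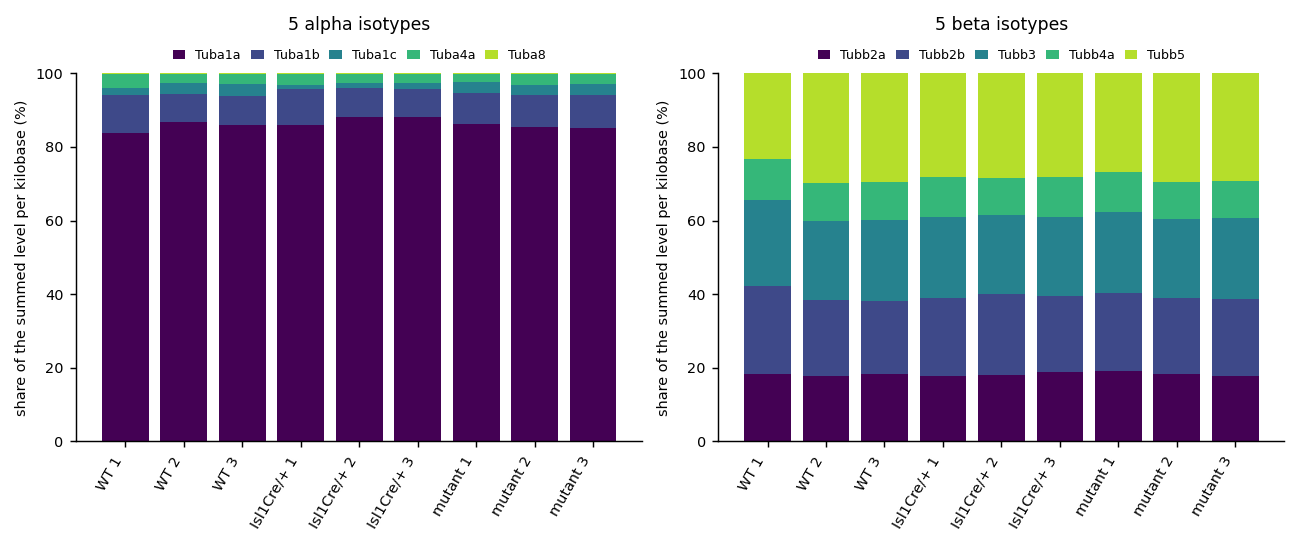
Share (%) of each isotype in the summed level per kilobase of exon of the 5 alpha genes (left) and 5 beta genes (right), 1 bar per library. Tuba1a fills 83.8% to 88.1% of the alpha bar in every library, while Tubb5, the largest beta share on average at this length, ranges from 23.3% in WT library 1 to 29.8%.

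Tuba1c, an alpha isotype of many cell types, was the member that differed most between genotypes. WT libraries 1 to 3 held 979, 1980 and 2028 counts of it, Isl1Cre/+ libraries 686, 818 and 994, and mutant libraries 2106, 1477 and 1516. After scaling, WT stood at 36.9, 70.1 and 70.5 cpm, Isl1Cre/+ at 23.4, 29.2 and 35.1, and the mutant at 79.2, 56.1 and 62.2. All 3 Isl1Cre/+ libraries lay below all 6 others, but the highest of them was close to WT library 1, whereas WT libraries 2 and 3 lay within the mutant range.

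The comparison of the controls asks what the Isl1Cre allele alone goes with. In Isl1Cre/+ against WT, 1 of the 10 members met the criterion of the study (at least 1.2-fold, with p under 0.05 before adjustment), as did 1.4% of all 13200 genes tested. This was Tuba1c, with a log2 fold change of -1.01 ± 0.274 (SE), 0.496 times the WT level. The same low Isl1Cre/+ libraries entered the call that led to the choice of Tuba1c, so this value is a description and nothing was read from the count. Over 15 other settings the log2 fold change ranged from -1.28, without WT library 1, to -0.86. In the edgeR test no gene of 13200 had an adjusted p under 0.05 between the controls, and 236 had an unadjusted one. Libraries of the controls did not overlap for 1 of 10 members, Tuba1c, and for 5.66% of all genes.

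Summed levels of some cell type lists also lay apart between the controls, and their part in the Tuba1c value was not tested. Ranges of the controls did not overlap for 3 of 14 lists. Endothelial markers (5 of 5 above the filter) were 257 to 270 cpm in WT, 282 to 381 in Isl1Cre/+ and 213 to 334 in the mutant. Sympathetic neuron markers (2 of 5) were 19.5 to 26.8 cpm in WT, 13.8 to 17.7 in Isl1Cre/+ and 14.8 to 19.0 in the mutant, and platelet markers (1 of 5) 7.54 to 9.04, 4.13 to 7.47 and 5.90 to 17.6 cpm. The ranges of the other 11 lists overlapped between the controls. Among these, red cell markers (7 of 7) summed to 899 to 2141 cpm in WT, 344 to 984 in Isl1Cre/+ and 1213 to 3978 in the mutant, and skeletal muscle markers (12 of 14) to 170 to 1185, 85.7 to 232 and 204 to 2799 cpm. Markers of dividing cells (7 of 7) were at 274 to 335, 256 to 373 and 245 to 367 cpm. No marker of these lists was at 0 in all libraries. In tissue RNA, fewer cells of a type and less RNA per cell cannot be told apart.

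In the mutant against Isl1Cre/+, the log2 fold change of Tuba1c was 1.17 ± 0.175, and 1.28 without mutant library 2. Without the filter on low counts, Tuba1c met the criterion in this comparison and between the controls. Which of these calls the choice saw is not stated. The adjusted p of Tuba1c in the mutant against Isl1Cre/+ moved with the filter and the tool far more than the fold change did. It was 0.962 in edgeR with the 13200 genes, 0.00515 in edgeR with all 33884 genes that had any count and 2.34e-07 in the Wald test of DESeq2, while the log2 fold change was 1.17, 1.16 and 1.18. Against WT, the mutant stood at 0.15 ± 0.254, at -0.09 without WT library 1 and at 0.27 without mutant library 2. Tuba1a and Tuba1b, which share windows with Tuba1c, differed by 0.13 ± 0.105 and 0.09 ± 0.0891 between the controls, with unadjusted p of 0.246 and 0.334 in the edgeR test.

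Tuba8, an alpha isotype of low level best known from muscle and testis, held few counts. WT libraries 1 to 3 held 116, 102 and 126 counts of it, Isl1Cre/+ libraries 160, 99 and 148, and mutant libraries 76, 91 and 63. The mutant libraries were the 3 lowest, but the highest of them (91 counts, exact 95% Poisson interval 73.3 to 112) and the lowest control library (99 counts, 80.5 to 120) agreed within this counting error. No mutant library reached 100 counts, so Tuba8 passed the filter through control libraries alone. Having passed in this way, its lower mutant values give no support for a difference.

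On the cpm scale Tuba8 stood at 4.12 ± 0.440 in WT, 4.74 ± 1.04 in Isl1Cre/+ and 2.97 ± 0.447 in the mutant (SD, n = 3). The mutant differed by a log2 fold change of -0.47 ± 0.199 from WT and -0.67 ± 0.220 from Isl1Cre/+. Without mutant library 2 these values were -0.57 and -0.79, and without WT library 1 the first was -0.43. Both comparisons use the same mutant libraries. The controls differed by 0.21 ± 0.202 and overlapped, with the lowest control values at 3.54 cpm in Isl1Cre/+ library 2 and 3.61 cpm in WT library 2. Skeletal muscle markers were highest in mutant library 2 at 2799 cpm, the mutant library with the most Tuba8 counts. Over all libraries the order was another, since Isl1Cre/+ libraries 1 and 3, with the most Tuba8 counts (160 and 148), held the lowest muscle sums (164 and 85.7 cpm). The part of muscle in the Tuba8 values was not tested.

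**Figure D2:**
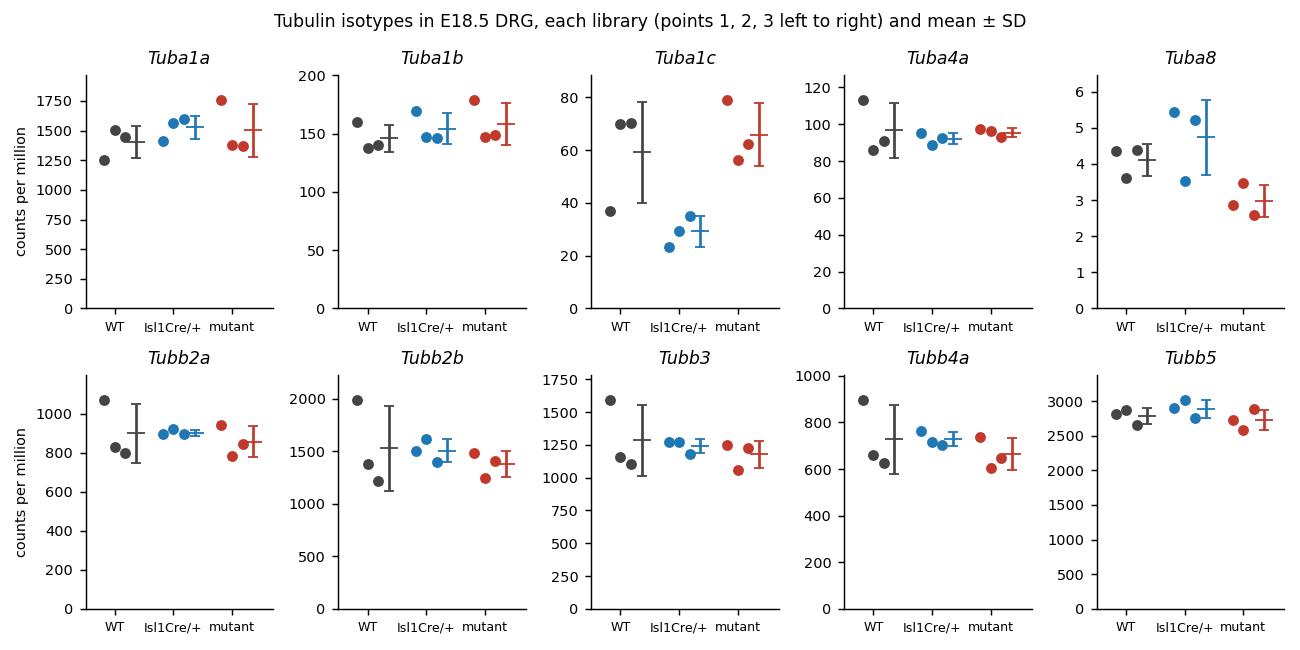
Levels in cpm (linear axes from 0) of the 10 isotypes in WT, Isl1Cre/+ and mutant libraries, with points for libraries 1, 2 and 3 from left to right and mean ± SD (n = 3) beside them. Tuba8 is lower in the 3 mutant libraries (2.59 to 3.46) than in the controls (3.54 to 5.45), Tuba1c is lowest in Isl1Cre/+, and WT library 1 is the highest point for Tubb2a, Tubb2b, Tubb3 and Tubb4a.

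In the mutant against WT, 1 of the 10 members, Tuba8, met the criterion, beside 0.318% of all genes. In the mutant against Isl1Cre/+, 2 of the 10, Tuba8 and Tuba1c, met it, beside 1.67%. Under other settings Tuba8 met it in 7 of 15 against WT and in 10 of 14 against Isl1Cre/+. Members whose libraries did not overlap were the same 1 and 2 genes, beside 2.76% and 7.65% of all genes. In both comparisons 1 gene, Meis2, or 0.00758% of all genes, had an adjusted p under 0.05 in edgeR's test, and it was no isotype. Nothing was read from these shares, since these contrasts chose the members. Of the members outside the criterion, Tuba1c lay furthest from 0 against WT, at 0.15 ± 0.254, and Tubb4a against Isl1Cre/+, at -0.13 ± 0.0911. The median log2 fold change of the 10 was -0.05 against WT and -0.08 against Isl1Cre/+, and that of all genes tested -0.01 and 0.00.

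**Figure D3:**
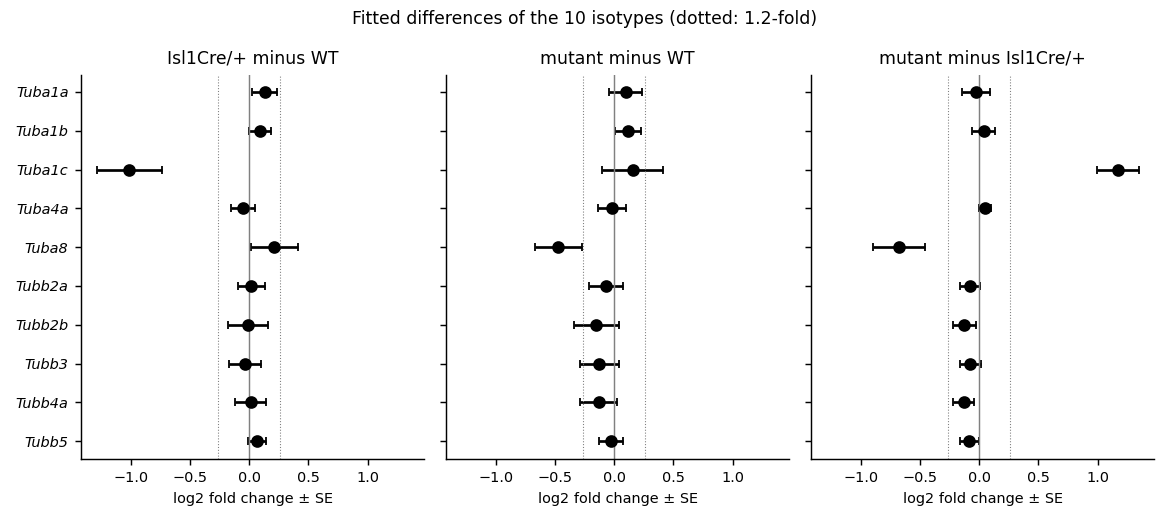
Log2 fold change ± SE of each isotype in the 3 comparisons, with dotted lines at a fold change of 1.2 in either direction. Tuba1c (-1.01 and 1.17 in the comparisons with Isl1Cre/+) and Tuba8 (-0.47 and -0.67 in those with the mutant) lie outside the dotted lines, and the other 8 members lie between them in every comparison.

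The other alpha isotypes, Tuba1a, Tuba1b and Tuba4a, overlapped between genotypes in every comparison. Of Tuba1a, WT libraries held 33241, 42611 and 41689 counts, Isl1Cre/+ libraries 41602, 43764 and 45365, and mutant libraries 46860, 36173 and 33360. These correspond to 1403 ± 134, 1527 ± 97.7 and 1502 ± 225 cpm, and the genotypes overlapped. Tuba1b stood at 146 ± 11.9, 154 ± 13.1 and 158 ± 18.1 cpm. Tuba4a, the isotype encoded without the terminal tyrosine, stood at 96.6 ± 14.7 cpm in WT, 92.3 ± 3.21 in Isl1Cre/+ and 95.5 ± 2.37 in the mutant, and WT library 1 (113 cpm) lay above every other library. Between the controls it differed by -0.05 ± 0.103, with an unadjusted p of 0.620 in the edgeR test.

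WT library 1 also stood highest for the beta isotypes of the nervous system. Tubb2b, an isotype of developing neurons, was at 1990 cpm in that library, 1379 and 1220 in the other WT libraries, between 1397 and 1617 in Isl1Cre/+ and between 1242 and 1485 in the mutant. Tubb3 reached 1594, 1156 and 1104 cpm in the WT libraries, 1275, 1270 and 1180 in those of Isl1Cre/+ and 1253, 1058 and 1224 in mutant libraries. In WT library 1, Tubb2b was 1.53 times, Tubb3 1.41 times, Tubb4a 1.40 times and Tubb2a 1.32 times the mean of the other WT libraries, whereas Tubb5 was 1.02 times and Tuba1a 0.846 times that mean. Sensory neuron markers were also highest in this library, at 6139 cpm against 4840 and 4598 in WT libraries 2 and 3, as were those of satellite glia, at 2206 against 1698 and 1643 cpm, and their part in these values was not tested. The ratio of summed alpha to summed beta level was 0.228 in this library and 0.294 to 0.372 in the 8 others.

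Between the controls, 0 of the 5 beta isotypes met the criterion, beside 1.4% of all genes, and so small a list gives no reading against that share. Their log2 fold changes ran from -0.03 (Tubb3, 95% interval -0.35 to 0.28) to 0.07 (Tubb5, -0.10 to 0.24), with unadjusted p of 0.390 and above and adjusted p of 1.0 in the edgeR test. These intervals leave room for changes past 1.2-fold in Tubb2a, Tubb2b, Tubb3 and Tubb4a, but not in Tubb5. Without WT library 1 all 5 were positive, at 0.14 for Tubb2a, 0.20 for Tubb2b, 0.13 for Tubb3, 0.17 for Tubb4a and 0.05 for Tubb5. Their unadjusted p in the edgeR test were then 0.0337, 0.0408, 0.0624, 0.0246 and 0.384, with adjusted p of 0.786 and above, and none reached 1.2-fold.

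In the mutant, the 4 beta isotypes of the nervous system stood slightly below WT, at -0.07 for Tubb2a, -0.15 for Tubb2b, -0.12 for Tubb3 and -0.13 for Tubb4a, each within 1 SE of 0. All 4 turned to positive values without WT library 1, at 0.075, 0.085, 0.061 and 0.047, and without mutant library 2 they stood at 0.015, -0.055, -0.028 and -0.042. Leaving out other libraries moved Tubb2a and Tubb2b the other way. They stood at -0.149 and -0.289 without WT library 3, the latter past 1.2-fold, and at -0.144 and -0.206 without mutant library 1. Against Isl1Cre/+, a comparison that does not use WT library 1, the 4 isotypes stood at -0.076, -0.126, -0.075 and -0.132, and at -0.009, -0.049, 0.003 and -0.061 without mutant library 2. Values of this comparison without another library are not given here. Tubb5, which stood at 2782 ± 117 cpm in WT, 2891 ± 128 in Isl1Cre/+ and 2732 ± 147 in the mutant, differed by -0.03 ± 0.104 from WT and -0.08 ± 0.0822 from Isl1Cre/+.

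The make-up of the beta pool and the ratio of alpha to beta level were compared between the controls with exact two-sided permutation tests over libraries, 6 in all. With 3 libraries against 3 the smallest p such a test can give is 0.1, so none could pass 0.05. The ratio of alpha to beta level was 0.316 ± 0.0249 in Isl1Cre/+ and 0.303 ± 0.0654 in WT (p = 0.9, adjusted p = 1.0 over the 6 exact permutation tests). Without WT library 1 the WT mean was 0.340, above that of Isl1Cre/+, so the direction rests on this library. In the mutant the ratio was 0.337 ± 0.0347. The 5 beta shares gave exact permutation p of 0.6 and above. Tuba1c, given as a description, made up 1.31% ± 0.202 of the alpha level in Isl1Cre/+ and 2.80% ± 0.745 in WT, or 3.23% in WT without library 1.

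Of 10 other tubulin genes, 6 passed the filter on low counts. Tubb4b, a beta isotype of cilia and many other microtubules, stood at 308 ± 66.9, 292 ± 9.11 and 284 ± 23.0 cpm in WT, Isl1Cre/+ and mutant, with 385 cpm in WT library 1. Tubb6 stood at 36.2 ± 8.34, 30.9 ± 7.85 and 32.9 ± 8.87 cpm, the widest relative spread of the 6. The gamma-tubulins Tubg1 (59.1 to 80.7 cpm) and Tubg2 (32.7 to 40.8 cpm), which start new microtubules, and the rarer Tubd1 (5.65 to 6.87 cpm) and Tube1 (3.46 to 4.83 cpm) overlapped between genotypes. Tuba3a, Tuba3b and Tubal3 held at most 5 counts in any library, and Tubb1, the isotype of platelets, 1 to 15. Across the 6 that were tested, log2 fold changes ran from -0.21 to 0.11 between the controls, -0.14 to 0.04 in the mutant against WT and -0.07 to 0.09 against Isl1Cre/+, and the smallest unadjusted p in edgeR's test was 0.339.

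Genes that act on tubulin did not meet the criterion in any comparison. Of 22 genes for folding and autoregulation, all tested, the most abundant were the chaperonin subunits Tcp1 (415 ± 31.0 cpm in WT, 429 ± 8.99 in Isl1Cre/+, 432 ± 19.1 in the mutant), Cct5 and Cct2. Their median log2 fold change was -0.01 between the controls, -0.03 in the mutant against WT and 0.02 against Isl1Cre/+, beside 0.00, -0.01 and 0.00 over all genes. Of 28 modifying enzymes 19 were tested, led by the polyglutamylase Ttll7 (570 ± 64.8, 576 ± 46.7 and 585 ± 55.3 cpm), the deglutamylase Agtpbp1 and the tyrosine ligase Ttl. Their medians were 0.04, -0.06 and -0.05 in the same order.

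All 34 microtubule-associated and severing proteins were tested, with Map1b (5437 ± 600, 4661 ± 640 and 5001 ± 1113 cpm), Stmn2 and Dpysl3 the most abundant. Map1b stabilizes axonal microtubules and Stmn2 binds free tubulin dimers. The medians of this list were 0.00, -0.07 and -0.05. Over the 81 related genes tested, 0 had an unadjusted p under 0.05 in the edgeR test in any comparison, beside 1.79%, 0.371% and 2.73% of all genes, and a count of 0 is near that background. In DESeq2 and limma voom 0 of them met the criterion, a count given without the share of all genes, and nothing was read from it. Single libraries mattered for 3 genes named after their values were seen. Dpysl2 met it between the controls without WT library 1 (-0.40) and against Isl1Cre/+ without mutant library 2 (0.34). Map1b met it between the controls without Isl1Cre/+ library 2 (-0.32). Vash1, part of the enzyme that removes tyrosine from alpha-tubulin, met it in the mutant without mutant library 3 (-0.29 against WT, -0.32 against Isl1Cre/+).

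**Figure D4:**
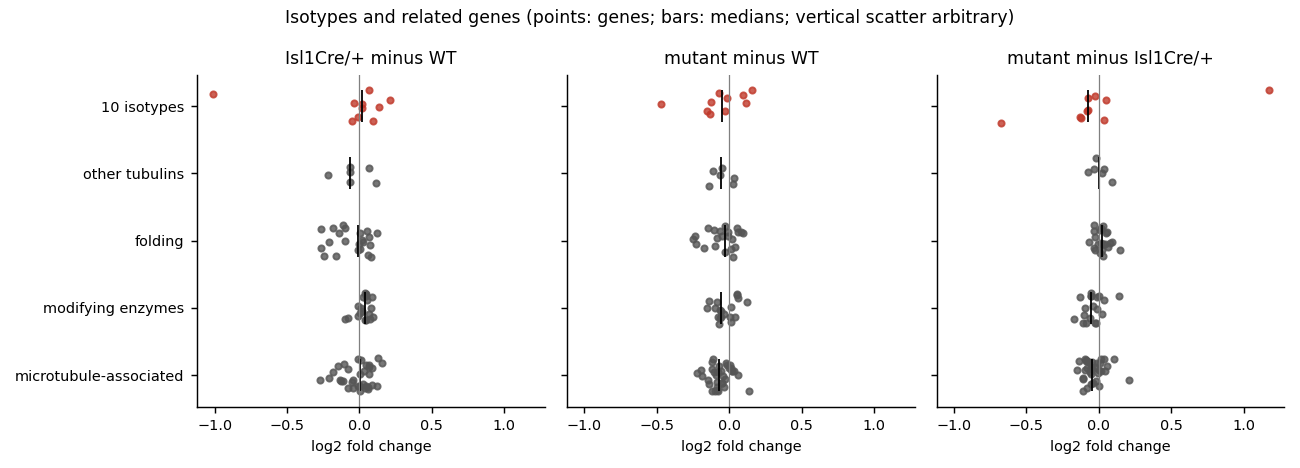
Log2 fold changes of the 10 isotypes (red) and of the tested genes of 4 related lists (grey) in the 3 comparisons, 1 point per gene, with black bars at the medians and arbitrary vertical scatter. The related genes lie between -0.27 and 0.21 in every comparison, and the isotypes far outside that range are Tuba1c in both comparisons with Isl1Cre/+ and Tuba8 in both with the mutant.

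The genes whose log2 cpm followed Tuba8 most closely over the 9 libraries, by Pearson correlation among the 13200 genes tested, were Tox4 (0.939), Vstm2b (0.927), Zbtb39 (0.921), Zbtb43 (0.912) and Vcp-rs (0.901). They were picked as the highest of many and share the libraries and genotypes with Tuba8, so these values are descriptions. Vstm2b stood at 11.9 ± 1.27 cpm in WT, 11.7 ± 1.78 in Isl1Cre/+ and 9.46 ± 0.545 in the mutant, and Tox4 at 61.5 ± 0.439, 62.7 ± 1.59 and 58.5 ± 1.27 cpm.

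RefSeq promoter windows on GRCm38.p6, 250 bases before to 50 after the start, were found for 9 of the 10 members. The letters TGACAG, the core of the sequence that Meis factors bind, were searched on both strands and occurred in the window of 1 of the 9, Tuba1a, and in 19.2% of all 32851 windows. Such a match is a description of the window and not a binding site.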

How the data were processed

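The isotypes and the lists of related and marker genes were chosen with earlier results of these data known. RNA was measured in 9 DRG libraries, whose genotype came from their labels. Per the study's methods, poly(A) RNA was made into CORALL libraries with unique molecular identifiers, and the authors sequenced single-end reads of 84 bases, took the identifiers out of them with UMI-tools, aligned the rest to mm10 with STAR 2.7.10, removed duplicates, kept uniquely mapped reads and counted them per gene with HTSeq-count 0.6. The deposited counts are not normalized. Annotation release and strand option are not given in the sources used here. The deposited log2 fold changes and log2 mean expression, the deposited p-values (unadjusted and adjusted) and the deposited scores (moderated statistic and log odds) are the authors' limma results and were not used.

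A gene was tested where 1 or more of the 9 libraries reached 100 counts (13200 genes). Counts were scaled by TMM and tested, each pair of genotypes alone, with the two-sided quasi-likelihood test of edgeR 4.0.16 in R 4.3.3 with p-values adjusted by Benjamini-Hochberg over the 13200, and the study's criterion (1.2-fold or more, p under 0.05) was applied. Levels in cpm used TMM over the 9 libraries, and levels per kilobase the exon length in GENCODE M21 (GRCm38), which held 55154 of the 55247 gene identifiers. Log2 cpm for correlations used a pseudocount of 0.5. Alternatives used DESeq2 1.42.0 (Wald test, size factors), limma 3.58.1 (voom), other filters, a replicate block, other lengths and each library left out. Named genes were the 10 isotypes, the other tubulins, related genes that met the criterion, the 3 most abundant of each related list, Meis2, Isl1 and the 5 genes most correlated with Tuba8. Genes met under alternatives only were named after their values were seen. Intervals on counts cover counting error only. The ends of the coding sequence of Tuba1a, Tuba1b, Tubb2a, Tubb2b and Tubb4a are not reported here.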

Additional observations from a re-analysis of the deposited data

How the results depend on the processing

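The call of Tuba8 in the mutant against WT, one of the values behind the choice of members, depended on the processing. Under DESeq2's size factors in edgeR, scaling by library size only, the filter of 100 counts in every library (which left Tuba8 without a value), the Wald test of DESeq2 and the replicate block, 0 members met the criterion, and leaving out 1 library gave 0 to 1 (0 without WT replicate 1, WT replicate 3, mutant replicate 1 or mutant replicate 3). The log2 fold change itself moved little with the tool or scaling, from -0.471 to -0.459 with DESeq2's size factors, -0.457 by library size, -0.46 in the Wald test and -0.476 with the block, and ranged from -0.574 to -0.383 with 1 library left out. In the mutant against Isl1Cre/+, the stricter filter and the replicate block gave 1 member, and leaving out 1 library gave 1 to 2 (1, Tuba1c, without Isl1Cre/+ replicate 1, Isl1Cre/+ replicate 3 or mutant replicate 3). Between the controls, where Tuba1c is a description only, 1 member, Tuba1c, met the criterion under every alternative run, the replicate block included (1). The replicate numbers name no shared animal or litter. Correlations between libraries of the same number ran from -0.553 to 0.386, and with 3 libraries per genotype they cannot decide whether libraries are paired. Whether libraries of the same number share a litter or a batch is not known.

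Of related genes, 1 (Tubb1) met the criterion between the controls with no filter on low counts. It held only 7 to 15 counts in WT, 1 to 5 in Isl1Cre/+ and 2 to 7 in the mutant. The 5 platelet markers, 1 of them above the filter, summed to 7.54 to 9.04, 4.13 to 7.47 and 5.90 to 17.6 cpm in the same order. Their part in the Tubb1 value was not tested. Leaving out 1 library gave 0 to 1 related genes in each comparison. For the alternatives of this section the share of all genes that met the criterion is not given. Nothing was therefore read from their counts of members and related genes. Leaving out WT replicate 1 and mutant replicate 2 together, an alternative chosen after seeing the data, gave 1 related gene (Pfdn6) and 1 member (Tuba8) in the mutant against WT.

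Between the controls, values near 0 changed sign. Tubb2b was 0.029 by library size only, 0.005 with no filter, 0.016 in limma voom and 0.017 with the replicate block, and Tubb3 was 0.001 by library size only. With 1 library left out, Tuba4a ranged from -0.124 to 0.053, Tubb2a from -0.053 to 0.140, Tubb2b from -0.143 to 0.199, Tubb3 from -0.127 to 0.125 and Tubb4a from -0.077 to 0.168. Tuba1a and Tuba1b kept their sign but moved in size, from 0.036 to 0.196 and from 0.024 to 0.138.

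With the longest transcript as length, Tuba1a made up 84.6% of the alpha pool and Tubb5 32.6% of the beta pool. With windows found in no other transcript, a length chosen after seeing the data, Tubb5 made up 23.2% and the ratio of alpha to beta level rose from 0.319 to 0.575. Uniquely mapping exon positions were not computed from the genome, which was not used here. For Tuba8, 63 to 160 counts limit the precision.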
